A study of Homo sapiens with 15 samples.

Results

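CD90+/CD133+ and CD90-/CD133- cells are the fractions at opposite ends of a sort of PEO1, a human cell line established from an ovarian carcinoma, and their RNA levels were compared. The arrays labelled CD90+ CD133+ (replicates 1 to 5) and CD90- CD133- (replicates 1 to 5) were taken, which makes 10 of the 15 arrays of the study, and the other 5 arrays hold the CD90+/CD133- fraction. All fractions were grown in RPMI-1640 medium with fetal bovine serum, stained with antibodies against CD90 (coupled to PE) and CD133 (coupled to APC) and with Sytox-blue to mark dead cells, and total RNA was hybridized to whole-genome expression arrays. Both groups come from 1 cell line, and the fractions are mixtures defined by a gate rather than clones. The design text speaks of triplicate cultures while the labels number 5 replicates per fraction. The methods name biological replicates for CD90-/CD133- and CD90+/CD133- cells but do not mention the CD90+/CD133+ arrays. The p-values measure the spread of the differences within pairs of same-numbered arrays, and this spread may be technical in part. Same-numbered arrays were treated as pairs, and replicates 4 and 5 share a label code.

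CD90, the product of THY1, is a small glycoprotein anchored in the outer membrane by a lipid and is found on fibroblasts, mesenchymal stem cells, neurons and some tumor cells. CD133, the product of PROM1, is a protein with several membrane spans that sits in membrane protrusions, and sorting by CD133 has been widely used to enrich stem-like cells of carcinomas, ovarian carcinoma included. The study asked how ammonia acts on stem-like PEO1 cells. Ammonia is fixed into glutamine by glutamine synthetase, and the hypoxia-inducible factors (HIFs), its other subject, are transcription factors that accumulate when oxygen is low.

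Values are probe-set intensities on a linear scale, normalized between arrays by the authors. Intensities under 16 were set to 16, called the floor here, before log2 was taken, so changes of dim genes are understated. A log2 difference below is always CD90+/CD133+ minus CD90-/CD133-, with its standard error (SE), from limma with the replicate number as a block over 19775 genes, and a gene was called higher or lower at a Benjamini-Hochberg adjusted p under 0.05. The median intensity of an array lay between 29.4 and 30.8 in CD90+/CD133+ cells and between 29.9 and 32.4 in CD90-/CD133- cells, lower in the former in all 5 pairs by a mean of 0.788 (exact paired permutation test, 2-sided p = 0.0625, the smallest that 5 pairs allow). The gap between 3' and 5' control probes, a sign of RNA degradation, overlapped between the groups, at 0.0118 to 0.118 against 0.0233 to 0.0932 on the log2 scale for GAPDH (exact p = 0.875) and 1.03 to 2.76 against 1.31 to 2.17 for ACTB (exact p = 0.562). In bulk RNA of sorted cells, fewer cells of a kind and less RNA per cell cannot be told apart. Where levels are set against each other, those of CD90-/CD133- cells come first and arrays run from replicate 1 to 5.

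The sort markers checked the labels and are no findings, since the cells were chosen by their proteins. THY1, on chromosome 11, had intensities of 67.8, 68.4, 101, 95.1 and 57.8 in CD90-/CD133- replicates 1 to 5 and 728, 1435, 1421, 1773 and 2171 in CD90+/CD133+ replicates 1 to 5. PROM1, on chromosome 4, had intensities of 16, 16, 44.1, 16 and 24.7 in the CD90-/CD133- fraction, 23.8, 21.5, 68.2, 24.6 and 156 in the CD90+/CD133- fraction and 429, 834, 1093, 796 and 1652 in the CD90+/CD133+ fraction. Every array stood where its label puts it, and neither marker overlapped between the fractions at the ends of the sort. THY1 was 18.6-fold and PROM1 41-fold higher in CD90+/CD133+ cells, the latter with 3 of 5 CD90-/CD133- arrays at the floor.

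Between the fractions, 2565 genes were higher (13% of all genes tested) and 3013 lower (15.2%) in CD90+/CD133+ cells, together 5578 genes or 28.2%. Of these, 2558 and 3005 moved the same way in all 5 pairs. Changes of at least 2-fold were found for 394 of the genes called higher and 498 of those called lower, and changes of at least 16-fold for 10 and 13. The 2 groups of arrays did not overlap for 3329 genes (16.8%), among them 1487 of the genes called higher and 1626 of those called lower. Without replicate 2 the counts were 1705 higher and 1903 lower, and without replicate 4 they were 1717 and 1902. The study's own rule asks for 1.5-fold between group averages, uses no p-value, and was set for CD90+/CD133- over CD90-/CD133- cells. Applied here to these fractions, with floored values of the brightest probe sets, it put 1169 genes higher and 1342 lower. The brightest probe set stands for each gene, and of the 86 called genes named by rule that have several, 39 had a weaker probe set with a change under 0.2 (log2) in the called direction. For example, among genes described further on, the log2 difference of the weakest probe set was 0.00063, 0.038, 0 and 0.021 for the higher genes CALML3, MCAM, SLC1A3 and EGLN1, and 0, -0.11, 0 and 0.0011 for the lower genes TRPM1, GATA6, LAMA4 and CCNE1. A count within a gene family is read below against 13% higher and 15.2% lower. These shares include 3492 genes at the floor on all 10 arrays. Over the 10003 genes with a mean intensity above 64 the shares were 22.4% higher and 24.4% lower. Lists of brighter genes are nearer to that measure.

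**Figure D1:**
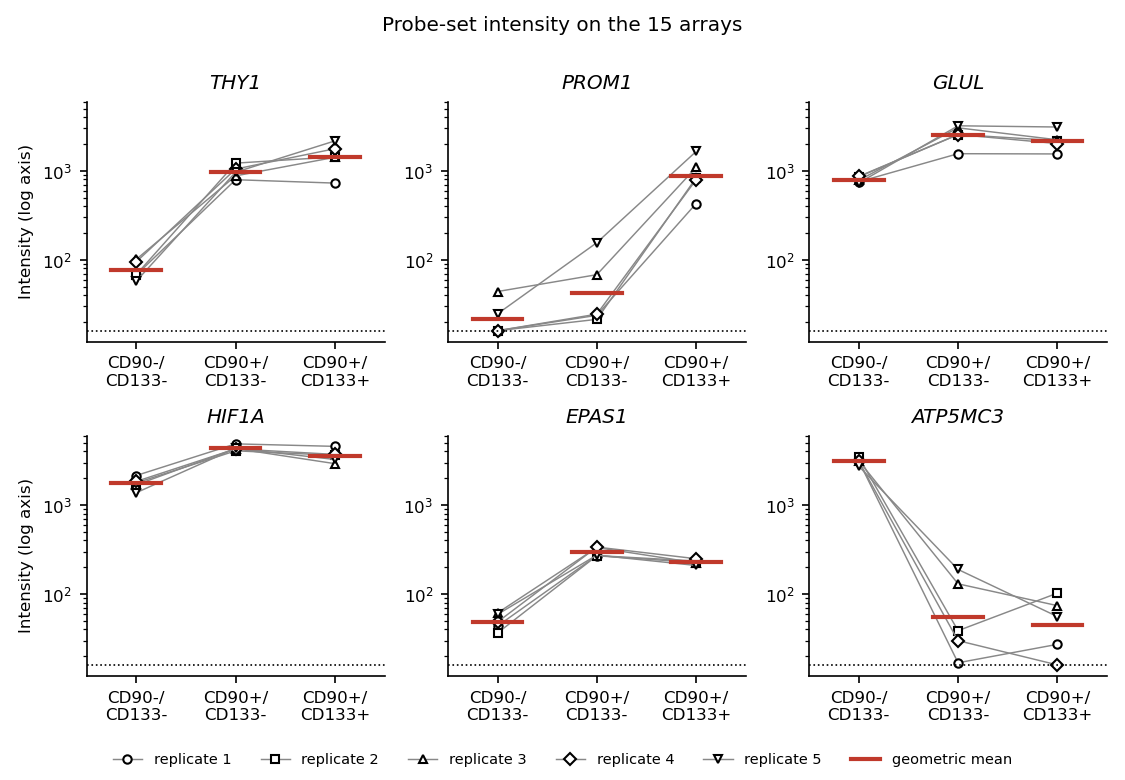
Probe-set intensity (log axis) of the sort markers THY1 and PROM1 and of GLUL, HIF1A, EPAS1 and ATP5MC3 on the 15 arrays, with lines joining arrays of the same replicate number, red bars for the geometric mean of 5 arrays and a dotted line at the floor of 16. THY1, GLUL, HIF1A and EPAS1 are higher in both CD90+ fractions on every array, PROM1 stands far above the rest in CD90+/CD133+ cells, and ATP5MC3 lies between 2734 and 3457 on the CD90-/CD133- arrays but at or under 102 on the CD90+/CD133+ arrays.

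GLUL, HIF1A and EPAS1, genes at the centre of the study's question, were higher in CD90+/CD133+ cells. GLUL encodes glutamine synthetase, which joins ammonia and glutamate. Its intensity was 753, 856, 784, 865 and 731 on the CD90-/CD133- arrays and 1549, 2187, 2233, 2028 and 3109 on the CD90+/CD133+ arrays. The groups did not overlap and GLUL was 2.72-fold higher (log2 difference 1.44, SE 0.17, adjusted p = 0.00618), although its 4 probe sets gave log2 differences from 0.29 to 1.44. HIF1A, the oxygen-regulated subunit of HIF-1, was at 2148, 1776, 1687, 1844 and 1377 against 4565, 3625, 2919, 3706 and 3253. That is a log2 difference of 1.03 (SE 0.069, adjusted p = 0.00178), with no overlap and a single probe set. EPAS1, which encodes HIF-2α, was at 43.8, 36.5, 61.4, 48.5 and 59.2 in CD90-/CD133- cells and at 235, 226, 224, 249.5 and 209.5 in CD90+/CD133+ cells. Its 4.67-fold difference (log2 2.22, SE 0.15, adjusted p = 0.00184) was larger than that of HIF1A, from a dim level, and the 3 probe sets of EPAS1 ranged from 0 to 2.22. In the CD90+/CD133- fraction the 3 genes had geometric means of 2510, 4364 and 295, against 2166, 3573 and 228 in CD90+/CD133+ cells. The direct comparison of these fractions called none of them (adjusted p = 0.252, 0.18 and 0.104).

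Among the 10 HIF subunits and regulators measured, 4 were higher and 2 lower. These counts were 4 higher and 0 to 2 lower when 1 replicate was left out, moving over 1.5 times from the full count without replicate 2, 4 or 5 (lower). EGLN1, which hydroxylates HIF-α when oxygen is present and so leads to its loss, was at 879.9, 844, 1039, 922 and 789.6 in CD90-/CD133- cells and 1824, 1677, 1620, 1824 and 1391 in CD90+/CD133+ cells. The ranges did not overlap, and the log2 difference was 0.90 (SE 0.071, adjusted p = 0.00257). HIF1AN, the asparaginyl hydroxylase that blocks HIF-α from its coactivators, rose by a smaller log2 0.39 (SE 0.049, adjusted p = 0.00724). HIF1AN lies on chromosome 10, and without it the list had 3 higher and 2 lower of 9. The HIF-β subunits went the other way. ARNT2 was lower (log2 -0.78, adjusted p = 0.0138), and the call was lost without replicate 4 or 5 (adjusted p 0.051 to 0.0587). ARNT was lower (log2 -0.14, adjusted p = 0.0134), and the call was lost without replicate 2 or 5 (adjusted p 0.0522 to 0.0575). Neither the other prolyl hydroxylases, EGLN2 (0.078) and EGLN3 (0.40), nor VHL (-0.23), which carries hydroxylated HIF-α to degradation, passed the test.

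Of 22 HIF target genes, 8 were higher and 3 lower. Leaving out 1 replicate at a time gave 3 to 7 higher and 1 to 2 lower, moving over 1.5 times from the full count without replicate 2, 3, 4 or 5 (higher) and without replicate 5 (lower). VEGFA, the main angiogenic growth factor, was at 240.5, 202, 250.4, 157 and 242 against 550.4, 512, 512, 352 and 514, a log2 difference of 1.16 (SE 0.05, adjusted p = 0.000846). SLC2A1, which encodes the glucose transporter GLUT-1, was at 214, 216, 207, 192 and 121 against 408, 399.5, 356, 401 and 223, a log2 difference of 0.91 (SE 0.043, adjusted p = 0.000984). Neither gene overlapped between the fractions, and the lowest array of both fractions was replicate 4 for VEGFA and replicate 5 for SLC2A1. By contrast ADM, the vasodilator peptide adrenomedullin, was at 858 to 2392 against 307 to 736 (log2 -1.49, SE 0.18, adjusted p = 0.00689). NDRG1, induced by hypoxia and differentiation, was lower as well (log2 -1.17, adjusted p = 0.013), and the call was lost without replicate 2 or 5 (adjusted p 0.0509 to 0.0559). The calls of BNIP3, DDIT4 and PFKFB3 were each lost with at least 2 of the replicates left out in turn. Of the 8 higher targets, BNIP3, P4HA1, DDIT4 and PFKFB3 lie on chromosome 10, where 61.7% of expressed genes were higher, and 4 of the remaining 18 targets were higher. CA12, LDHA and PDK1 did not pass the test, with log2 differences of -0.099, -0.063 and -0.30.

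In glycolysis, 10 of 28 genes were higher and 5 lower. Over the fits with 1 replicate left out, 6 to 8 higher and 0 to 4 lower were called, moving over 1.5 times from the full count without replicate 4 (higher) and without replicate 1, 3, 4 or 5 (lower). The hexokinases HK1, HK2 and HKDC1 were all higher, and for HK1 the call was lost without any of replicates 1, 2, 3 or 4 (adjusted p 0.0616 to 0.0802). HKDC1 was at 16.5 to 36 against 47.3 to 122 (log2 1.69, SE 0.25, adjusted p = 0.0108). HK2 had a log2 difference of 0.99 (SE 0.19, adjusted p = 0.0229), with overlapping groups, and the call was lost without any of replicates 2, 4 or 5 (adjusted p 0.0698 to 0.0726). PDK4, a kinase that shuts down pyruvate dehydrogenase, rose by 1.04 (adjusted p = 0.0284), and the call was lost without any of replicates 1, 3 or 5 (adjusted p 0.0759 to 0.0913). PGAM1, a mutase of the lower pathway, rose by 0.85 (SE 0.037, adjusted p = 0.000853), and PFKP, the platelet-type phosphofructokinase, by 0.62 (adjusted p = 0.0029). HK1, HKDC1, PFKP, PFKFB3 and PGAM1 lie on chromosome 10, and without its 5 members the list stood at 5 higher and 5 lower of 23. The abundant enzymes GAPDH (-0.044), PGK1 (-0.13), ALDOA (-0.13) and LDHA (-0.063) did not pass the test.

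Beside GLUL, the glutamine and glutamate list held 7 more genes that were higher and 4 that were lower of 21 measured. With 1 replicate left out, the counts were 5 to 8 higher and 0 to 2 lower, moving over 1.5 times from the full count without replicate 2, 3, 4 or 5 (higher) and without replicate 1, 2, 3, 4 or 5 (lower). GOT1, the cytosolic aspartate aminotransferase, was at 358, 295, 248, 279 and 231 against 575, 498, 580.5, 582 and 519. Its ranges did not overlap (log2 0.98, SE 0.10, adjusted p = 0.00501), while GOT2, its mitochondrial counterpart, was slightly lower (-0.33, adjusted p = 0.0435), and the call was lost whichever replicate was left out (adjusted p 0.0587 to 0.122). GLUD1, which releases ammonia from glutamate, was higher by 0.59 (SE 0.065, adjusted p = 0.00533), and GOT1 and GLUD1 both lie on chromosome 10. SLC1A4, a neutral amino acid transporter, was higher by 0.91 (SE 0.058, adjusted p = 0.00161). SLC1A3, a glutamate importer, had 24, 21.7, 30.9, 27.9 and 41.1 in CD90-/CD133- cells and 39.2, 134, 543, 160.4 and 1017 in CD90+/CD133+ cells. SLC1A3 rose in all 5 pairs but its lowest CD90+/CD133+ array lay within the range of the CD90-/CD133- arrays, its log2 difference was 2.92 (SE 0.65, adjusted p = 0.0348), and the call was lost without any of replicates 2, 3, 4 or 5 (adjusted p 0.0869 to 0.103).

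In the urea cycle and related disposal of ammonia, 4 of 18 genes were higher and 3 lower. The counts were 3 higher and 2 to 3 lower when 1 replicate was left out. CPS1, which makes carbamoyl phosphate from ammonia, was lower (log2 -0.61, SE 0.07, adjusted p = 0.0059), while ASS1, argininosuccinate synthase, was higher (0.81, SE 0.098, adjusted p = 0.00671). Both moved the same way in every pair, but the groups overlapped (179 to 341 against 112 to 249 for CPS1, 449 to 1483 against 645 to 2312 for ASS1), and without the block their adjusted p was 0.114 and 0.244. OAT, ornithine aminotransferase, on chromosome 10, fell (log2 -0.59, adjusted p = 0.0141), and the call was lost without replicate 3 or 4 (adjusted p 0.0519 to 0.0586). DDAH1, which breaks down methylarginines that inhibit nitric oxide synthase, was at 894, 794, 698, 749.5 and 802 against 2062, 1826, 2105, 1780 and 2037. It had the largest change of the list, with no overlap (log2 1.32, SE 0.069, adjusted p = 0.00113), and its 4 probe sets gave 0 to 1.32.

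**Figure D2:**
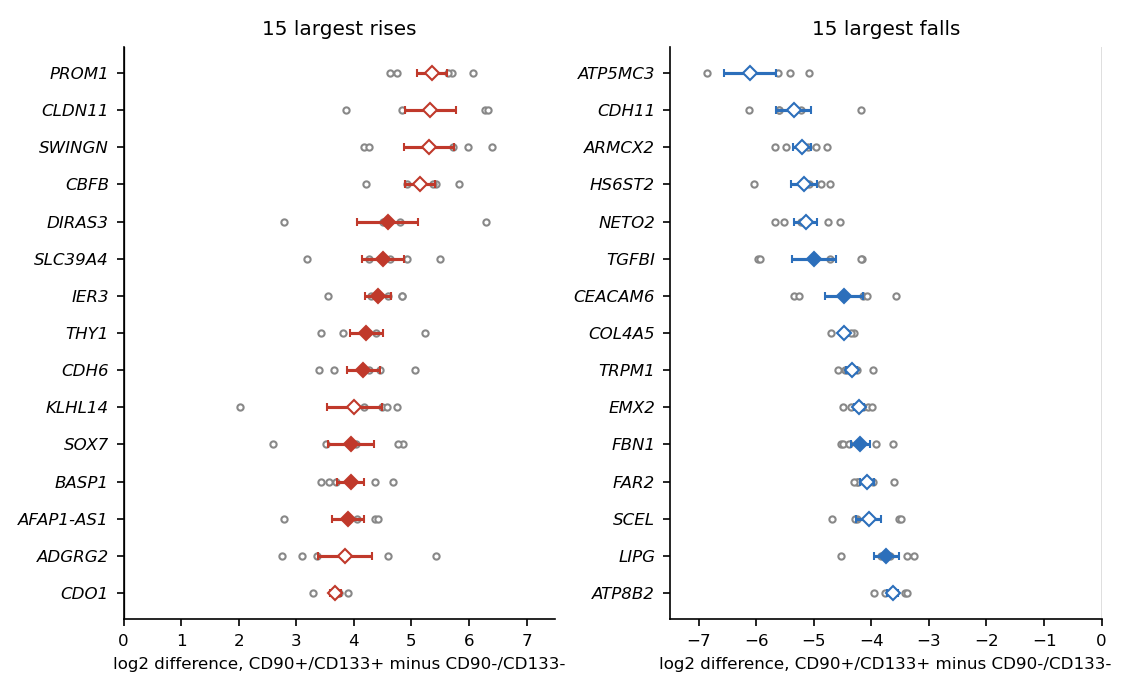
The 15 largest rises and 15 largest falls among genes called with 1 direction in all 5 pairs, as log2 difference of CD90+/CD133+ minus CD90-/CD133- cells. Diamonds and bars give the limma estimate and its standard error, open diamonds mark genes at the floor on at least 1 array, and grey circles are the 5 pairs, none of which crosses 0.

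Besides the sort markers, the genes with the largest rises were CLDN11, SWINGN, CBFB, DIRAS3, SLC39A4, IER3, CDH6, KLHL14, SOX7, BASP1, AFAP1-AS1, ADGRG2 and CDO1. CLDN11, a claudin of tight junctions in myelin and testis, was at 22.4, 16, 74.7, 34.9 and 69.5 in CD90-/CD133- cells and 1739, 1284, 1081, 997 and 2799 in CD90+/CD133+ cells. SWINGN, a long non-coding RNA, was at 18.3, 16, 85.7, 85.1 and 35.7 against 1154, 1348, 1541, 1637 and 1885. CBFB, the subunit that binds RUNX transcription factors and steadies them on DNA, was at 16, 16, 46.7, 24.9 and 20.4 against 908, 684, 862, 754 and 853. In these 3 genes every CD90+/CD133+ array was more than 10 times its paired CD90-/CD133- array, and 1, 1 and 2 CD90-/CD133- arrays were at the floor. Their log2 differences were 5.33 (SE 0.44), 5.31 (SE 0.43) and 5.15 (SE 0.26), with adjusted p of 0.00281, 0.00275 and 0.00107. A dimmer probe set of CBFB gave a log2 difference of 1.29, and the other probe sets of CLDN11 went down to 0.

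The genes next in size did not overlap between the fractions either. IER3, an immediate early gene that responds to stress and growth factors, was at 403, 129, 446, 197 and 211 against 11528, 3662, 5247, 3866 and 5080, a 21.4-fold difference (SE 0.23 on the log2 scale, adjusted p = 0.00107). DIRAS3, an imprinted gene for a small GTPase that restrains growth in ovary and breast, was at 65.4, 33.3, 258, 73.5 and 59.4 against 1513, 2616, 1785, 2058 and 1350. Replicate 1 of IER3 was the highest CD90+/CD133+ array and replicate 3 of DIRAS3 the highest CD90-/CD133- array, and the log2 difference of DIRAS3 was 4.59 (SE 0.53, adjusted p = 0.00593). SLC39A4, a zinc importer, was at 18.9 to 47.5 against 399 to 854 (log2 4.50, SE 0.37). SOX7, a transcription factor of endoderm and endothelium, was at 59.9 to 221 against 1218 to 2099 (log2 3.95, SE 0.40). BASP1, a membrane-bound signalling protein, was at 18.7 to 39.5 against 408 to 495, and AFAP1-AS1, a long non-coding RNA, from 20.9 to 66.8 to 421 to 585. These 4 genes had adjusted p between 0.0014 and 0.0044, and SLC39A4 and BASP1 were dim in CD90-/CD133- cells. CDO1, which oxidizes cysteine, had the smallest SE of these genes, at 16 to 25.1 against 211 to 266 (log2 3.68, SE 0.096, adjusted p = 0.000527). KLHL14, a kelch adaptor of ubiquitin ligases, and ADGRG2, an adhesion receptor, varied more between arrays, at 65 to 482 and 108 to 1089 on the CD90+/CD133+ arrays against 16 to 26.4 and 16 to 26.9. The weakest probe sets of BASP1, CDO1 and KLHL14 gave log2 differences of 0.17, 0.17 and 0.

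The largest fall was that of ATP5MC3, 1 of 3 genes for the c subunit of the mitochondrial ATP synthase, the ring that turns as protons cross the membrane. It was at 3129, 3457, 3144, 3101 and 2734 on the CD90-/CD133- arrays and 27.2, 102, 74.1, 16 and 55.9 on the CD90+/CD133+ arrays. The groups were apart by a factor of 69 (log2 -6.11, SE 0.45, adjusted p = 0.00222). The 3 probe sets of ATP5MC3 gave log2 differences from -6.11 to -1.15, and all of them were negative. ATP5MC1, which encodes the same mature protein, was at 1900, 1794, 1908, 1627 and 1793 against 2312, 2288, 2362, 2102 and 1751, a log2 difference of 0.26 (SE 0.07, adjusted p = 0.0601) that did not pass the test. ATP5MC2 was at 1911 to 3512 against 1714 to 3436 (-0.08, adjusted p = 0.0528). Of the 18 ATP synthase genes measured, 4 were higher and 3 lower, and apart from ATP5MC3 none changed by 2-fold. Without the members on chromosome 10 the counts were 2 higher and 3 lower. ATP5F1A, the catalytic-head α subunit, was lower (log2 -0.81, SE 0.059, adjusted p = 0.00216). ATP5MK and ATP5F1C, both on chromosome 10, were higher by 0.69 and 0.53 (adjusted p = 0.00366 and 0.00368).

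Several cell-surface and matrix genes followed among the falls. CDH11, a cadherin of mesenchymal and bone-forming cells, was at 1115, 778, 595, 776 and 291 on the CD90-/CD133- arrays and at the floor on all CD90+/CD133+ arrays, at least 40.7-fold lower (adjusted p = 0.00131), with log2 differences from -5.35 to -0.43 over its 4 probe sets. ARMCX2, HS6ST2 and NETO2 were at 565 to 915, 806 to 1056 and 376 to 997 in CD90-/CD133- cells and at 16 to 29.3, 16 to 31.9 and 16 to 26.6 in CD90+/CD133+ cells. HS6ST2 adds sulfate to heparan sulfate chains and NETO2 is a partner of glutamate receptors, and their log2 differences were -5.17 (SE 0.22) and -5.14 (SE 0.20). TGFBI, a matrix protein induced by TGF-β, was at 3158, 4103, 1713, 4576 and 2279 against 50.5, 156, 95.2, 74.7 and 126, a log2 difference of -4.99 (SE 0.38, adjusted p = 0.0024). FBN1, the main protein of microfibrils, was at 1531, 1764, 1850, 2126 and 1371 against 66.1, 144, 122, 94.5 and 65.6, a log2 difference of -4.19 (SE 0.17, adjusted p = 0.000846). Each CD90+/CD133+ array of both genes was more than 10-fold below its paired array. CEACAM6, an adhesion protein of carcinomas, fell (log2 -4.48, SE 0.33), and COL4A5, a chain of basement membrane collagen, fell too (log2 -4.47, SE 0.068), with 2 of 5 CD90+/CD133+ arrays at the floor. FAR2, SCEL, LIPG and ATP8B2 fell, with log2 differences between -4.07 and -3.63, from geometric means of 327, 278, 347 and 226 to geometric means of 19.5, 16.9, 26 and 18.3. The weakest probe sets of HS6ST2, COL4A5, FAR2, SCEL and ATP8B2 gave log2 differences of -0.037, 0, 0, 0 and -0.11.

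A few genes were at the floor in 1 fraction and over 64 on all arrays of the other. GIPC2, an adaptor protein with a PDZ domain, was at 154, 149.7, 158, 151 and 161 in CD90+/CD133+ cells and at the floor in all CD90-/CD133- arrays, at least 9.66-fold higher (adjusted p = 2.39e-05). GLIS3, a zinc-finger transcription factor, was at 99.1, 67.8, 109.5, 78.9 and 131 against the floor, at least 5.92-fold higher. In the other direction stood, with CDH11, the cation channel gene TRPM1 (252 to 383, at least 20.3-fold lower), the homeobox gene EMX2 of the urogenital tract (254 to 362, at least 18.5-fold lower), PLCXD3 (67.7 to 247, at least 10.7-fold lower) and ITGA4, the α4 integrin (139 to 209.8, at least 10-fold lower). Adjusted p of these 7 genes lay between 2.39e-05 and 0.00427. Between the CD90+ fractions the log2 differences of these 7 genes ran from -0.23 to 0 and none was called (adjusted p between 0.276 and 1).

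Among interferon-stimulated genes and genes of antigen presentation, the called members were all lower in CD90+/CD133+ cells. Type I interferons switch on a common set of antiviral genes through a short promoter element bound by a complex that holds IRF9. Of 29 genes of the list, 13 were lower in CD90+/CD133+ cells and 0 higher, and these 13 were lower in each of the 5 pairs. The letters of that element, GAAA repeated after any 2 bases, or TTTC repeated so on the other strand, were searched in the 250 bases before the start of each gene in the RefSeq promoter table (GRCh38.p14), a search chosen after the values were seen. They stood in 3.39% of the promoters of genes on these arrays, in 6 of the 12 lower genes with a promoter in the table, and in 8 of 10 genes of the list that did not pass the test. A gene with several or overlapping matches counted once. Shown because they carry the element and belong to genes called lower, these are the bases 170 to 71 before the start of IFI6, ISG15 and IFI27, 5' to 3' on the strand of the gene, with matches in capitals.
IFI6: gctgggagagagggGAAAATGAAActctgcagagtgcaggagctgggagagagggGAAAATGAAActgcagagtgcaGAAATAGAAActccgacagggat
ISG15: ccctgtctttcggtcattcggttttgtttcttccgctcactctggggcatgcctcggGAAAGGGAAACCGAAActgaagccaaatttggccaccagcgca
IFI27: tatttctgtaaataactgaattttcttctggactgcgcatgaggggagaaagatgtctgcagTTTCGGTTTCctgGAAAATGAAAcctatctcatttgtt
They lie at chr1:27672263-27672362 (minus strand), chr1:1013327-1013426 (plus strand) and chr14:94110566-94110665 (plus strand). IFI6 holds 3 matches, ISG15 a pair that overlap, and IFI27 1 on each strand. A match describes the letters and is no measure of binding.

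IFI6, an interferon-induced membrane protein, was at 153, 344, 691, 400.3 and 5470 in CD90-/CD133- replicates 1 to 5 and 42.9, 51, 66.9, 58.1 and 1337 in the paired CD90+/CD133+ replicates. Replicate 5 stood far above the others in both fractions, so the groups overlapped although every pair fell, by a log2 difference of -2.56 (SE 0.26, adjusted p = 0.00464). MX1, which traps viral ribonucleoproteins, was at 83.4, 239, 299.7, 133.4 and 2665 against 30.6, 42.3, 47.8, 44 and 458 (log2 -2.15, SE 0.24, adjusted p = 0.00575). ISG15, a ubiquitin-like modifier, was at 363, 585, 406, 417 and 3083 against 166, 176, 176, 194 and 764 (log2 -1.44, SE 0.17, adjusted p = 0.00671). IFI44 fell (log2 -1.67, SE 0.15, adjusted p = 0.00324). IFI27 fell (log2 -1.51, SE 0.23, adjusted p = 0.0129), and the call was lost without replicate 2 or 4 (adjusted p 0.0521 to 0.0553). PSMB9 and PSMB8, subunits of the immunoproteasome that cuts peptides for presentation, fell, with log2 differences of -1.42 and -0.61 (adjusted p = 0.00321 and 0.0112), and IRF1, a transcription factor of the response, fell too (log2 -0.95, adjusted p = 0.00564). The presenting molecules themselves, with log2 differences of -0.066 for HLA-B and -0.018 for B2M, and the peptide transporters TAP1 (-0.18) and TAP2 (-0.10) did not pass the test.

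These calls rest on the pairing. The summed intensity of the 29 genes was 20677, 26418, 29788, 25126 and 67094 in CD90-/CD133- replicates 1 to 5 and 20279, 22656, 25625, 23734 and 45601 in CD90+/CD133+ replicates, so the range over replicate numbers in either fraction exceeded the difference within any pair. Without the replicate block 2 of the 13 genes were called, PSMB9 and IRF1 (adjusted p = 0.0453 and 0.022), and the adjusted p of IFI6 was 0.212. With the label code as the block the count was 2, and with 1 replicate left out it was 8 to 10, the lowest without replicate 2. In CD90+/CD133- cells the same replicate stood out, with IFI6 at 43.9, 59.4, 88.5, 45.1 and 1222, and the direct comparison of the CD90+ fractions gave IFI6 a log2 difference of -0.033 (adjusted p = 1).

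**Figure D3:**
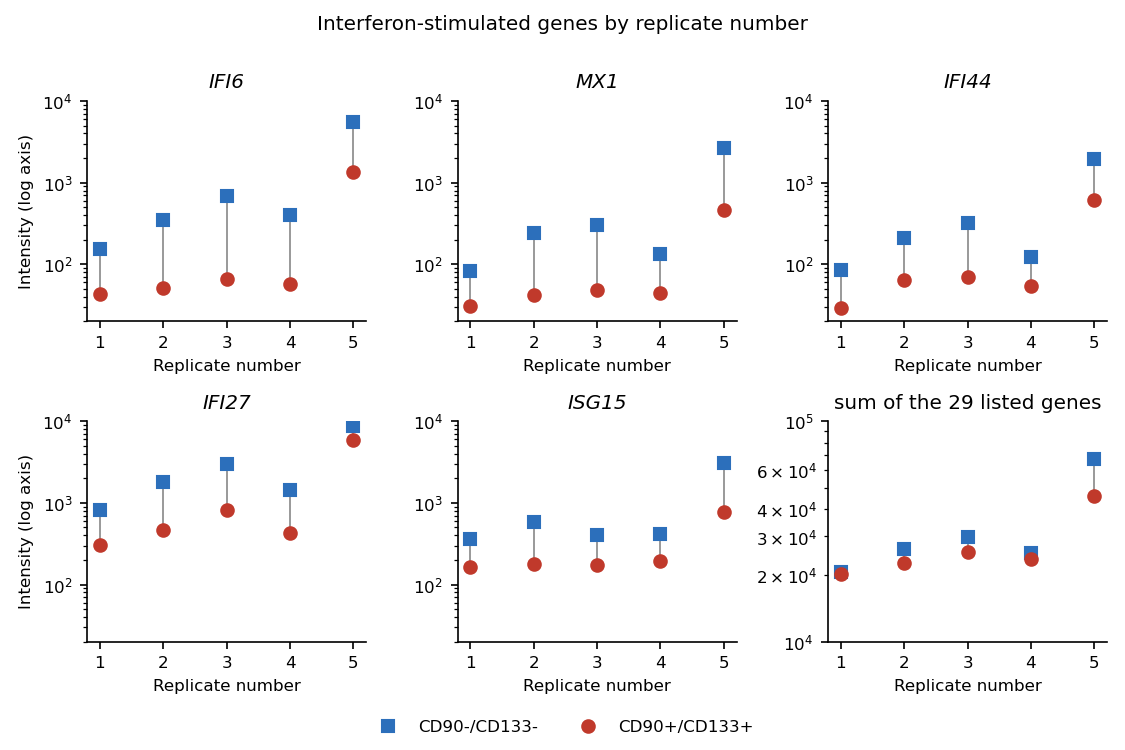
Intensity (log axis) of IFI6, MX1, IFI44, IFI27 and ISG15, and the summed intensity of the 29 listed genes, by replicate number, with blue squares for CD90-/CD133- and red circles for CD90+/CD133+ arrays and grey lines joining each pair. The CD90+/CD133+ array is the lower of its pair for each gene and replicate shown, and replicate 5 is the highest of its fraction in every panel.

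Of 26 cytokine genes, 5 were higher and 3 lower. Leaving out 1 replicate at a time gave 1 to 4 higher and 0 to 3 lower, moving over 1.5 times from the full count without replicate 2, 3, 4 or 5 (higher) and without replicate 1, 2 or 4 (lower). CXCL1, a neutrophil chemokine, was at 1491, 363, 440.2, 399 and 467 against 8812, 1014, 1135, 1065 and 1361, a log2 difference of 1.68 (SE 0.21, adjusted p = 0.00752). CXCL8, its relative, was at 219.6 to 1021 against 386 to 4592 (log2 1.31, adjusted p = 0.0376), and the call was lost without any of replicates 1, 3, 4 or 5 (adjusted p 0.0816 to 0.115). For both genes the groups overlapped and the adjusted p without the block was 0.134 and 0.273. TNFSF10, the death ligand TRAIL, was higher by 0.65 (adjusted p = 0.0426), and the call was lost without any of replicates 1, 3, 4 or 5 (adjusted p 0.0644 to 0.128). LIF was higher by 0.64 (adjusted p = 0.0207), and the call was lost without any of replicates 2, 3, 4 or 5 (adjusted p 0.0502 to 0.0678). IL6 had a log2 difference of 1.79 (SE 0.51) that did not pass the test (adjusted p = 0.0656), with CD90+/CD133+ arrays from 119 to 6469.

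Adhesion genes changed in a mixed way, and the epithelial list had 11 of 27 genes lower and 6 higher. Over the fits with 1 replicate left out, 4 to 6 higher and 7 to 10 lower were called, moving over 1.5 times from the full count without replicate 2, 4 or 5 (lower). The claudins split, since CLDN11 and CLDN3 were higher and CLDN4 lower. CLDN3 was at 176, 229, 228, 259 and 350.9 against 510.1, 914, 909, 758 and 1167 (log2 1.76, SE 0.096, adjusted p = 0.00122), and CLDN4 had a log2 difference of -0.81 (SE 0.068, adjusted p = 0.00287). The keratins of simple epithelia were lower, KRT7 at -0.64 and KRT18 at -0.66 on the log2 scale (adjusted p = 0.00739 and 0.00713), and KRT8 too (log2 -1.02, adjusted p = 0.028), where the call was lost without any of replicates 2, 4 or 5 (adjusted p 0.0845 to 0.0884). KRT23 instead was higher, at 24.4, 50.1, 153, 99.8 and 822 against 511, 606, 1798, 1028 and 3596 (log2 3.41, SE 0.35, adjusted p = 0.00446). Replicate 5 of KRT23 was the highest in both fractions, which overlapped. The desmosome genes PKP3 (-0.96), DSG2 (-0.76) and DSC2 (-0.43) were lower, with adjusted p from 0.000974 to 0.0102, although a dimmer probe set of DSC2 gave 0.31. CDH1, which encodes E-cadherin, had a log2 difference of -0.11 and did not pass the test, and neither did EPCAM (0.27).

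Mesenchymal genes and factors of the epithelial-mesenchymal transition were not all higher in the CD90+/CD133+ fraction either, with 3 of 22 higher and 7 lower. With 1 replicate left out, the counts were 2 to 4 higher and 4 to 7 lower, moving over 1.5 times from the full count without replicate 4 (lower). CDH6, a cadherin of kidney and ovarian carcinoma, was at 21.6, 41.2, 159, 85.6 and 109 against 416, 1369, 1666, 1884 and 1370 (log2 4.17, SE 0.28, adjusted p = 0.00181). CDH11 went the opposite way, as given above. The transcription factors TWIST1 and SNAI2, which repress epithelial genes, were lower. TWIST1 was at 131, 134, 127, 124 and 96.7 against 29.6, 35.1, 27, 22.2 and 33.5 (log2 -2.06, SE 0.15, adjusted p = 0.00217), and SNAI2 fell (log2 -1.52, SE 0.23, adjusted p = 0.0121). VIM (0.34), CDH2 (0.78), ZEB1 (0.0056) and SNAI1 (-0.41) did not pass the test.

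Matrix genes gave 6 higher and 7 lower of 30, and integrins and laminins 4 higher and 7 lower of 19. The matrix counts were 3 to 5 higher and 6 to 8 lower when 1 replicate was left out, moving over 1.5 times from the full count without replicate 2 or 4 (higher). Leaving out 1 replicate at a time gave 2 to 4 higher and 5 to 6 lower for the integrin and laminin genes, moving over 1.5 times from the full count without replicate 2, 4 or 5 (higher). Without chromosomes 10, 13, 15 and 20 the matrix list had 4 lower. Of the genes of basement membrane collagen IV, COL4A1 and COL4A2 were lower beside COL4A5, while COL4A3, COL4A4 and COL4A6 did not pass the test. COL4A1 was at 818, 666, 554, 769 and 805 against 294, 267, 277, 250 and 322 (log2 -1.35, SE 0.098, adjusted p = 0.00216), and COL4A2, its partner chain, fell (log2 -1.28, SE 0.062, adjusted p = 0.00102). Both lie on chromosome 13. EFEMP1, a fibulin-like matrix protein, was higher, at 142 to 370.1 against 284 to 1079 (log2 1.31, SE 0.094, adjusted p = 0.00209), and so was LOXL2, a collagen cross-linking enzyme (0.96, adjusted p = 0.00556). ITGA2, the α2 integrin that binds collagen, was at 1711, 1907, 1633, 2160 and 1192 against 637, 356, 304, 278 and 229 (log2 -2.32, SE 0.24, adjusted p = 0.00446). The laminin chain LAMA4 fell (log2 -3.20, SE 0.26, adjusted p = 0.00275) and LAMC1 rose by 0.99 (SE 0.043, adjusted p = 0.000853). ITGB8 was higher by 1.18 (adjusted p = 0.0175), and the call was lost without any of replicates 2, 4 or 5 (adjusted p 0.0545 to 0.0636).

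Other surface markers that have been used for stem-like cells gave 3 higher and 3 lower of 14. Over the fits with 1 replicate left out, 3 to 4 higher and 1 to 2 lower were called, moving over 1.5 times from the full count without replicate 2, 4 or 5 (lower). MCAM (CD146), an adhesion protein of vessels and mesenchymal cells, was at 127, 95.5, 172, 129.6 and 169 against 910.3, 751, 769.6, 745 and 908 (log2 2.59, SE 0.14, adjusted p = 0.00118). ALCAM (CD166) was at 1144, 1297, 1474, 1320 and 1196 against 4151, 4526, 3920, 4671 and 3622 (log2 1.70, SE 0.081, adjusted p = 0.000974). Neither overlapped between the fractions, nor did CD24, at 2944 to 4294 against 6039 to 9234 (log2 0.88, SE 0.074, adjusted p = 0.00293). ITGA6 was lower (-0.99, adjusted p = 0.00479), CD44 too (-0.50, adjusted p = 0.0386), and for CD44 the call was lost without any of replicates 2, 3, 4 or 5 (adjusted p 0.0917 to 0.121). CD9 was the other lower gene (log2 -0.52, adjusted p = 0.0198), and the call was lost without any of replicates 1, 2, 4 or 5 (adjusted p 0.0593 to 0.0763). Without the block none of the 3 lower genes was called. KIT (0.091), LGR5 (0) and CXCR4 (0.51) did not pass the test. Of 13 aldehyde dehydrogenases, 4 were higher and 1 lower. With 1 replicate left out, the counts were 4 higher and 1 to 2 lower, moving over 1.5 times from the full count without replicate 1 (lower). ALDH2, the mitochondrial enzyme, was at 51.4, 75.2, 82.1, 88.9 and 90.8 against 169, 259.8, 320.2, 292 and 371 (log2 1.84, SE 0.062, adjusted p = 0.000634), while ALDH1A1, the isoform most used to mark stem-like cells, was at the floor on all 10 arrays. ALDH3B1 and ALDH7A1 were higher by 1.06 and 0.65, and ALDH3A2 lower (log2 -0.67, adjusted p = 0.0106, 0.00132 and 0.00269).

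**Figure D4:**
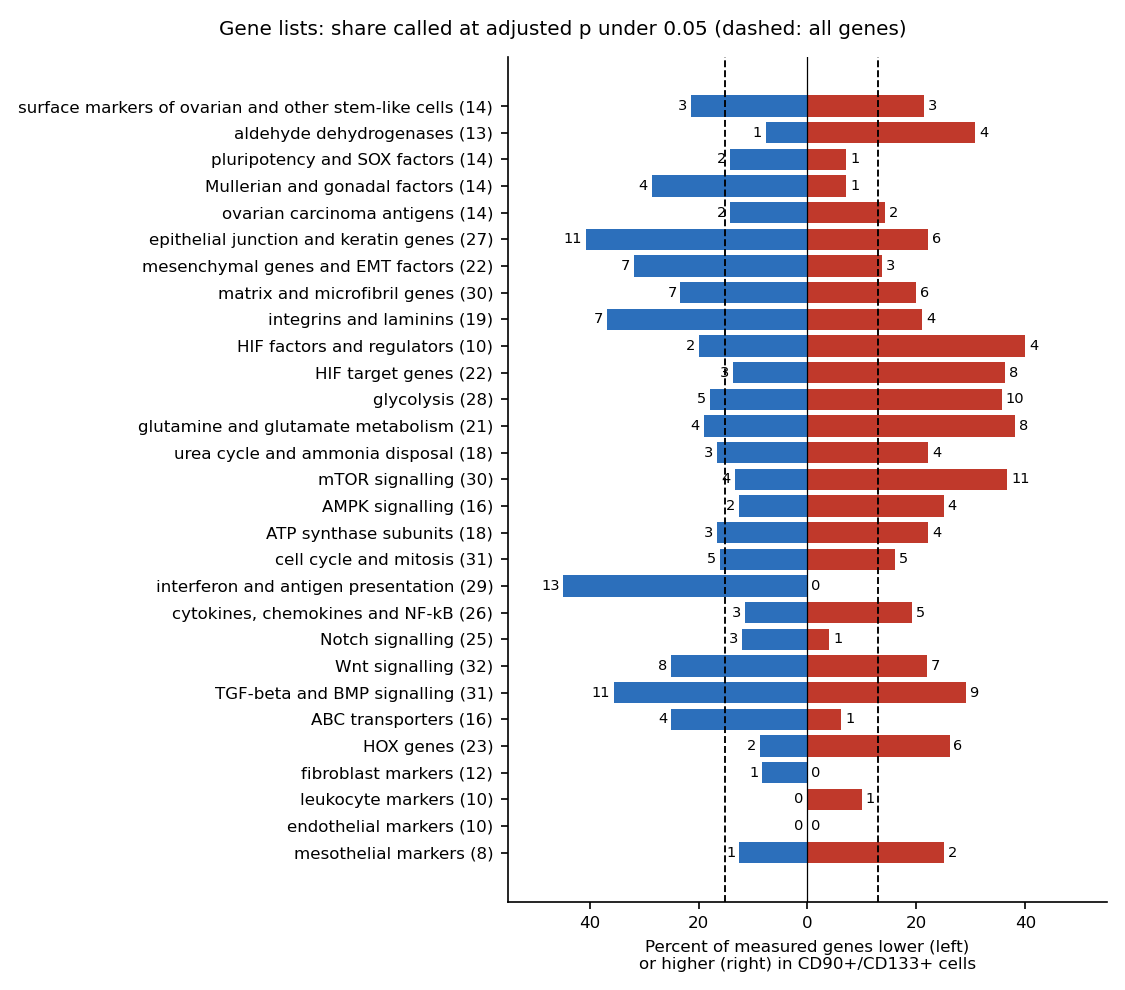
Share of the measured genes of each list other than the sort markers (number in brackets) that was called lower (blue, left) or higher (red, right) in CD90+/CD133+ cells, in percent, with the number of genes at each bar and dashed lines at the shares over all genes, 15.2% lower and 13% higher. The interferon list has 13 lower and 0 higher, while HIF factors, glutamine, mTOR, HIF target and glycolysis lists have the highest shares of higher genes among the lists shown. Over genes with a mean intensity above 64 the shares, not drawn, were 24.4% lower and 22.4% higher. Without chromosome 10, also not drawn, 3 of 9 HIF factors, 6 of 19 glutamine and 9 of 28 mTOR genes were higher. For HIF targets and glycolysis these counts were 4 of 18 and 5 of 23.

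Transcription factors of development shifted gene by gene. SOX7 was the only higher gene of 14 pluripotency and SOX factors, and KLF4 and SOX4 were lower. These counts were 1 higher and 2 lower when 1 replicate was left out. KLF4 was at 1059, 689, 588, 636 and 636 against 525, 214, 156, 138 and 200.3 (log2 -1.70, SE 0.19, adjusted p = 0.00544), and SOX4 fell (log2 -0.60, adjusted p = 0.00742, 0.4 without the block), with -0.76 to 0.20 over its 6 probe sets. Of 14 Müllerian and gonadal factors, 1 was higher and 4 lower. Leaving out 1 replicate at a time gave 1 to 2 higher and 3 to 4 lower, moving over 1.5 times from the full count without replicate 1 (higher). MECOM, a zinc-finger factor amplified in ovarian carcinoma, was at 56.2, 34.2, 45.1, 30.7 and 47.1 against 300, 378, 293, 356 and 183 (log2 2.81, SE 0.29, adjusted p = 0.00459). GATA6 (-2.56), FOXL2 (-1.67) and EMX2 were lower, GATA6 with 4 of 5 CD90+/CD133+ arrays at the floor. PAX8 (0.32) and WT1 (-0.39), both used to identify serous ovarian carcinoma, did not pass the test. Among 23 HOX genes, 6 were higher and 2 lower. Over the fits with 1 replicate left out, 5 to 6 higher and 0 to 1 lower were called, moving over 1.5 times from the full count without replicate 1, 2, 3, 4 or 5 (lower). HOXC10 was at 26.3, 40.3, 60.7, 50.2 and 68.4 against 164, 182, 201, 201 and 199 (log2 2.02, SE 0.18, adjusted p = 0.00335), HOXC13 rose by 1.12 and HOXB6 by 0.90 (adjusted p = 0.0109 and 0.00107). HOXD8 was at the floor in CD90+/CD133+ cells and at 22.5 to 56.1 in CD90-/CD133- cells, at least 2.05-fold lower (adjusted p = 0.0274), and the call was lost without any of replicates 1, 2 or 4 (adjusted p 0.0702 to 0.0959).

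Of the ovarian carcinoma antigens, 2 of 14 were higher and 2 lower. With 1 replicate left out, the counts were 1 higher and 0 to 3 lower, moving over 1.5 times from the full count without replicate 1, 2, 3, 4 or 5 (higher) and without replicate 1, 2, 3 or 4 (lower). The kallikreins KLK7 and KLK10, secreted serine proteases of 1 gene cluster, went opposite ways. KLK7 was at 93.2, 202, 372, 217 and 414 against 326, 879, 1373, 984 and 1234 (log2 1.91, SE 0.10, adjusted p = 0.00121). KLK10 was at 945, 1866, 1606, 2060 and 2390 against 129.8, 388, 821, 470 and 989 (log2 -1.90, SE 0.33, adjusted p = 0.0168), and the call was lost without replicate 2 or 4 (adjusted p 0.0673 to 0.0674). KLK7 rose and KLK10 fell in each pair, and both overlapped between the fractions. MSLN, mesothelin, differed by only 0.27 (adjusted p = 0.028), and the call was lost whichever replicate was left out (adjusted p 0.0541 to 0.0817). PRAME was lower (log2 -0.60, adjusted p = 0.0299), and the call was lost without any of replicates 1, 2, 3 or 4 (adjusted p 0.0679 to 0.095). MUC16, which encodes CA-125, had a log2 difference of -0.15 and did not pass the test.

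In TGF-β and BMP signalling 9 of 31 genes were higher and 11 lower, the largest number of calls of any list. The counts were 4 to 7 higher and 7 to 9 lower when 1 replicate was left out, moving over 1.5 times from the full count without replicate 2, 3, 4 or 5 (higher) and without replicate 2 or 4 (lower). Among the ligands, BMP4 was higher and BMP2 and INHBA, the activin chain, lower. BMP2 was at 134, 99.4, 219.5, 147 and 299 against 16.1, 21.1, 38.7, 21.6 and 53.2 (log2 -2.61, SE 0.13, adjusted p = 0.00107) and INHBA at 1834, 1549, 1436, 1676 and 1013 against 714, 432, 303, 426 and 213 (log2 -1.94, SE 0.16, adjusted p = 0.00264). BMP4 was at 41.2, 63.2, 63.9, 52.2 and 67.6 against 97.4, 152, 543, 229 and 798 (log2 2.26, SE 0.45, adjusted p = 0.0246), and the call was lost without any of replicates 2, 3, 4 or 5 (adjusted p 0.0514 to 0.083). No array of these 3 ligands overlapped between the fractions. The receptor TGFBR2 was at 183, 164, 195, 198 and 226 against 542, 690.4, 915, 766 and 1093 (log2 2.02, SE 0.12, adjusted p = 0.00142), with -0.44 from a dimmer probe set. Of the SMADs, which carry the signal to the nucleus or block it, SMAD2 (-1.20), SMAD7 (-1.51) and SMAD9 (-1.46) were lower and SMAD6 (1.58) higher, with adjusted p from 0.000846 to 0.0108. SMAD3 was higher and SMAD5 lower too. The call was lost without any of replicates 2, 3 or 4 for SMAD3 and without any of replicates 2, 3, 4 or 5 for SMAD5. The BMP targets split. ID3 was lower (-1.43, adjusted p = 0.00795) and ID1 (0.34) did not pass the test. ID2 was higher, and the call was lost whichever replicate was left out (adjusted p 0.052 to 0.097).

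In Wnt signalling 7 of 32 genes were higher and 8 lower, and the secreted antagonists DKK1, SFRP1 and DKK3 were among the higher ones. Leaving out 1 replicate at a time gave 4 to 6 higher and 6 to 7 lower, moving over 1.5 times from the full count without replicate 2 (higher). DKK1, on chromosome 10, was at 953, 230.4, 373, 316 and 165 against 5868, 1330, 1480, 1498 and 756 (log2 2.32, SE 0.11, adjusted p = 0.000958), with every pair higher but the fractions overlapping. SFRP1 was at 528, 367, 495, 318 and 369 against 1616, 1338, 1308, 1014 and 1355 (log2 1.69, SE 0.083, adjusted p = 0.00104), without overlap. The ligands WNT5A (-1.65), WNT7A (-0.59) and WNT9A (-0.60) were lower (adjusted p = 0.00686, 0.00242 and 0.0111). The receptors split, with FZD10 at 151 to 474 against 16 to 51.2 (log2 -3.17, SE 0.10, adjusted p = 0.000634), FZD5 higher by 0.99 (adjusted p = 0.00179) and FZD7 higher by 1.89 (adjusted p = 0.0229), where the call was lost without any of replicates 2, 3, 4 or 5 (adjusted p 0.0528 to 0.0779). AXIN2, a target of the pathway, had 0.67 and did not pass the test. In Notch signalling 1 of 25 genes was higher and 3 were lower, below the shares of all genes. Over the fits with 1 replicate left out, 0 to 1 higher and 2 lower were called, moving over 1.5 times from the full count without replicate 1, 3 or 4 (higher). The ligand JAG1 was lower (-0.49, adjusted p = 0.00658, 0.323 without the block), as was LFNG, which modifies Notch receptors (-0.62, adjusted p = 0.0043, 0.29 without the block). JAG2 was higher (0.46, adjusted p = 0.0233), and the call was lost without any of replicates 1, 2, 3 or 4 (adjusted p 0.0529 to 0.076).

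Of 30 genes of the mTOR list, 11 were higher and 4 lower. With 1 replicate left out, the counts were 8 to 11 higher and 3 to 4 lower. The GTPases that switch mTORC1 on at the lysosome were among the higher genes, and so were members that restrain the pathway. RHEB rose by 0.87 (SE 0.04, adjusted p = 0.000913), RRAGC by 0.83 (SE 0.087, adjusted p = 0.00485), and RRAGD was at 283, 443, 452, 326 and 439.8 against 730.3, 982, 875, 963 and 1003 (log2 1.25, SE 0.098, adjusted p = 0.00254). The PI3-kinase subunits PIK3R3 (1.34), PIK3CD (0.997) and PIK3CB (0.74) were higher (adjusted p = 0.00715, 0.00329 and 0.00227). DDIT4, SESN1 and EIF4EBP2, which restrain the pathway or its output, were higher as well, as were RPS6KA2 and MLST8. The calls of DDIT4 and EIF4EBP2 were each lost with 3 of the replicates left out in turn. Both genes lie on chromosome 10, and without it the list had 9 higher and 4 lower of 28. RPS6KA3, a ribosomal S6 kinase, was lower (-1.14, SE 0.15, adjusted p = 0.00797), as was TSC1, which holds RHEB in check (-0.49, adjusted p = 0.00635). RICTOR and EIF4EBP1 were the other lower genes. MTOR itself had 0.084 and RPTOR -0.19, and neither passed the test. Of 16 AMPK genes, 4 were higher and 2 lower. The counts were 2 to 3 higher and 1 to 2 lower when 1 replicate was left out, moving over 1.5 times from the full count without replicate 1, 2 or 3 (higher) and without replicate 1, 2, 3 or 4 (lower). PRKAG2, the γ2 subunit that senses AMP, was at 123, 95.2, 120.1, 119 and 89 against 409.6, 335, 327, 366 and 269 (log2 1.64, SE 0.06, adjusted p = 0.000732). CAB39, a scaffold of the kinase LKB1 upstream of AMPK, was at 4453, 3899, 3956, 3782 and 2997 against 1320, 1455, 1629, 1421 and 1316 (log2 -1.41, SE 0.091, adjusted p = 0.00165), and CAMKK2, another upstream kinase, rose by 1.12 (SE 0.062, adjusted p = 0.00125). The catalytic subunit PRKAA2 was higher by 0.38 (adjusted p = 0.0343), and the call was lost without any of replicates 1, 2, 3 or 4 (adjusted p 0.0659 to 0.113).

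Of 31 cell cycle genes, 5 were higher and 5 lower, and 2 higher and 5 lower without chromosomes 10, 13, 15 and 20. Leaving out 1 replicate at a time gave 2 to 5 higher and 5 to 6 lower, moving over 1.5 times from the full count without replicate 2, 3, 4 or 5 (higher). CDK1, the mitotic kinase, was at 1668, 1419, 1592, 1199 and 1391 against 2723, 3313, 2438, 3097 and 3384 (log2 1.04, SE 0.15, adjusted p = 0.0103), and it lies on chromosome 10. CCNB2 was higher by 0.55 (adjusted p = 0.00842), and BUB1 by 0.83 (adjusted p = 0.0139), where the call was lost without replicate 2 or 4 (adjusted p 0.0579 to 0.0587). CCNE1, the cyclin of S-phase entry, was at 288, 248, 277, 247 and 253 against 135, 116, 154, 143 and 113 (2-fold lower, SE 0.071 on the log2 scale, adjusted p = 0.00207), without overlap. The inhibitors CDKN1B (-0.86, adjusted p = 0.0047) and CDKN1A (-0.46, adjusted p = 0.00872) were lower too. MKI67 (-0.17) and TOP2A (0.32) did not pass the test. Of 16 ABC transporters, 1 was higher and 4 lower. Over the fits with 1 replicate left out, 1 higher and 3 to 4 lower were called. ABCA3, a lipid transporter, rose by 1.17 (SE 0.072, adjusted p = 0.0015). The drug and conjugate exporters ABCC1 (-0.62), ABCC4 (-0.89) and ABCC3 (-1.46) were lower (adjusted p = 0.00207, 0.0086 and 0.0224), and for ABCC3 the call was lost without replicate 1 or 2 (adjusted p 0.0723 to 0.0831). ABCA1, the cholesterol exporter, was lower (log2 -0.86, adjusted p = 0.00487, 0.0533 without the block). ABCB1 and ABCG2, the exporters often tied to stem-like cells, were at the floor on all 10 arrays.

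Markers of other cell types were checked by list. Of 12 fibroblast markers 1 was called, FAP, which was lower (106 to 197 against 31.9 to 41.6, log2 -1.98, adjusted p = 0.00287), and the summed intensity of the list was 383 to 449 in CD90+/CD133+ cells and 449 to 517 in CD90-/CD133- cells. COL3A1, LUM, PDGFRA, ASPN and OGN were at the floor on all 10 arrays. Of 10 leukocyte markers CD14 was higher (43.4 to 71.5 against 67.9 to 171, log2 1.001, adjusted p = 0.00869), with summed intensities of 255 to 272 against 284 to 378, and PTPRC, the pan-leukocyte marker, was at the floor on all arrays. None of 10 endothelial markers passed the limma test, and 1 was lower without replicate 4 (summed intensity 263 to 278 against 265 to 291), where ERG had -0.56 and PECAM1 0.28. Of 8 mesothelial markers, with summed intensities of 973 to 2237 against 1314 to 3296 that KRT5 dominated (744 to 2004 against 1093 to 3071), KRT5 and UPK3B were higher by 0.75 and 1.09 and CALB2 lower (log2 -0.99, adjusted p = 0.0174, 0.00641 and 0.00713), and for KRT5 the call was lost without replicate 3 or 4 (adjusted p 0.0523 to 0.068).

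The changes were unevenly spread over chromosomes. Over 10003 genes with a mean intensity above 64, of which 22.4% were higher and 24.4% lower, the median log2 difference of each chromosome was set against that of all of them. Chromosome 10 stood highest, with 240 of 389 genes higher and 40 lower and a median 0.456 above that of all genes. In the 5 pairs this shift was 0.374 to 0.468. Chromosome 15 followed, with 171 of 354 genes higher, 17 lower and a shift of 0.27 (0.244 to 0.314 in the pairs). At the other end, chromosome 13 had 19 of 168 genes higher and 80 lower, with a shift of -0.268 (-0.392 to -0.222), and chromosome 20 had 16 of 294 higher and 139 lower, with a shift of -0.23 (-0.258 to -0.18). Each of these 4 chromosomes lay on the same side in all 5 pairs. That does not set them apart, since every chromosome other than 5 and 19 did so too, most with smaller shifts. In CD90+/CD133- against CD90-/CD133- cells, which share the CD90-/CD133- arrays, the shifts were 0.459, 0.278, -0.136 and -0.189.

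The shift of chromosome 10 was not even along it. With its genes in RefSeq order and split into 5 segments of nearly equal gene number, a split chosen after the values were seen, the first 4 segments had 51, 55, 60 and 58 of 78 genes each higher and medians 0.529, 0.488, 0.576 and 0.507 above that of all genes. The last segment had 16 of 77 higher and 28 lower and a median of -0.129. On chromosome 13 the second and last segments were lowest, with 21 of 34 and 26 of 33 genes lower and medians of -0.618 and -0.88, against -0.152, -0.193 and -0.129 in the others. On chromosome 15 the last segment held 56 of 70 genes higher, with a median of 0.588. Chromosome 20 was lower in every segment, from -0.13 to -0.405. Examples on chromosome 10 were CALML3, a calmodulin-like protein (29.1, 20.9, 36.5, 22.2 and 26.3 against 168, 226, 213, 288 and 123, log2 2.89, adjusted p = 0.00372), PRTFDC1 (27.6 to 60 against 266 to 385, log2 2.68) and DKK1, which were higher, while EMX2 on the same chromosome was lower. On chromosome 13 they were SCEL, which was lower like ARHGEF7, an exchange factor of Rac (1195, 1198, 1347, 1321 and 1669 against 334, 262, 315, 278 and 327, log2 -2.15, adjusted p = 0.000786) and like NAXD, which repairs damaged NADH (829.6 to 1292 against 257 to 307, log2 -1.85), while SWINGN on chromosome 13 had a large rise. The 9 probe sets of ARHGEF7 gave log2 differences from -2.15 to 0.10.

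**Figure D5:**
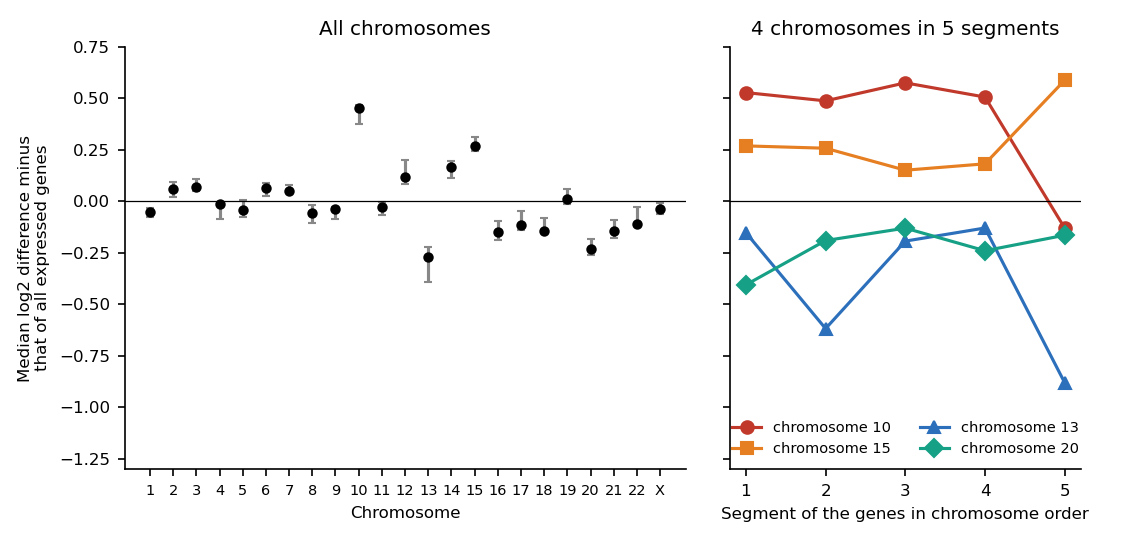
Median log2 difference (CD90+/CD133+ minus CD90-/CD133-) of the expressed genes of each chromosome minus that of all 10003 expressed genes, with grey bars for the range over the 5 pairs (left), and the same median over 5 segments of the genes in chromosome order for chromosomes 10, 13, 15 and 20 (right). Chromosome 10 lies at 0.456 above all genes, with 4 segments between 0.488 and 0.576 and the last at -0.129, and chromosome 13 falls to -0.88 in its last segment.

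How much of this belongs to CD133 was asked by comparing CD90+/CD133+ with CD90+/CD133- cells directly, in the same way. The 3' to 5' gap of GAPDH was 0.0118 to 0.118 in CD90+/CD133+ and 0.0902 to 0.268 in CD90+/CD133- cells, lower in the former in 5 of 5 pairs (exact paired permutation test, 2-sided p = 0.0625, the smallest possible), and that of ACTB was lower in 4 of 5 pairs (1.03 to 2.76 and 1.82 to 3.31, exact p = 0.125). The part of RNA quality in this comparison was not tested. Only 8 genes passed the test (0.0405%), 4 higher and 4 lower, while 3890 had an unadjusted p under 0.05. The higher genes were SSC4D (log2 0.32, adjusted p = 0.0424), CEACAM19 (0.29), NOP10 (0.22) and TEFM (0.19), and the lower ones SPEN (-0.62), AMIGO1 (-0.51), RNF138 (-0.45) and SEC24B (-0.28), all under 2-fold. PROM1 itself, the sort gene, was higher on every CD90+/CD133+ array (log2 4.38, SE 0.33), yet its adjusted p was 0.0575, so the difference by which the cells were sorted did not pass it. Besides PROM1, the genes at least 2-fold apart were CENPA (log2 1.09, adjusted p = 0.104), a histone of the centromere, IL7R (1.05, adjusted p = 0.236), AURKB (1.03, adjusted p = 0.125), ATF3 (-1.28, adjusted p = 0.251), SLC7A11 (-1.11, adjusted p = 0.353) and INHBE (-1.06, adjusted p = 0.619). Against CD90-/CD133- cells, the CD90+/CD133- fraction had 2340 genes higher (11.8%) and 2702 lower (13.7%). The number of genes called in the direct comparison moved with the method. It was 457 and 443 with all 3 fractions in 1 fit and 745 and 609 when only the brighter genes were tested, and without replicate 4 it was 2 and 2, without replicate 3 it was 1 and 0, and without any other replicate 0 and 0.

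The genes with the largest differences that did not pass the test were uneven between replicates. PKDCC, a secreted kinase, was at 36.7, 225, 704, 218 and 967 in CD90+/CD133+ cells and 60.8, 52.3, 56.4, 54.9 and 52.4 in CD90-/CD133- cells (log2 2.24, SE 0.81, adjusted p = 0.121). SPP1, osteopontin, was at the floor on all CD90+/CD133+ arrays and at 268, 114, 27.7, 92.9 and 16 on the CD90-/CD133- arrays (adjusted p = 0.103). CTHRC1 was at the floor on all CD90-/CD133- arrays and at 16, 47.7, 137, 57.1 and 174 on the CD90+/CD133+ arrays (adjusted p = 0.0705). SYTL5 was at 16, 39.4, 143, 71 and 146 against the floor (adjusted p = 0.0705). In each of these 4 genes the fractions overlapped, since at least 1 array of the higher fraction came down to the level of the other.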

How the data were processed

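Total RNA of sorted PEO1 fractions was hybridized to Affymetrix U133 Plus 2.0 arrays, 5 per fraction. Per the labels and methods, the authors normalized the raw data between arrays by a cross-correlation method and deposited 1 linear intensity per probe set, with a lowest value of 5. The software that summarised the probes is not given in the sources used here. Of 54675 probe sets, 41097 named 1 gene, 1801 several and 11777 none in the platform annotation. Control probe sets (62) and those without a single gene were left out, and the brightest probe set on average stood for each of 19775 genes.

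A floor of 16 was applied to the intensities before the log2 transform. limma 3.58.1 in R 4.3.3 was fitted to the 10 arrays with fraction and replicate number as terms, and p-values were adjusted by Benjamini-Hochberg over all genes. The replicate number was the block because the design of the comparison set same-numbered arrays as pairs. In a check, same-numbered arrays deviated together from their fraction means (correlations 0.185 to 0.699, and 5 of 5 arrays correlated best with their own number). For CD90+/CD133+ replicate 3 this was close, at 0.185 with its own number and 0.146 with CD90-/CD133- replicate 5. No 2 arrays held identical values. In simulated data 200 of 19775 genes were changed, all drawn from genes with a mean intensity above 64. There the fit recovered 79% of 2-fold and 97% of 4-fold changes, and 7.37% of its calls were false. In the real data 28.2% of genes were called, so these rates do not carry over to them or to dimmer genes. The number of arrays limits the precision. GAPDH and ACTB control probes served as signs of RNA quality.

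Genes are named by rule: the sort genes and the study's genes, the 15 largest rises and falls, up to 4 called members per list, the c subunit genes, the genes called between the CD90+ fractions, the 5 largest changes not called, up to 5 genes each way at the floor in 1 fraction only, and 3 per outlying chromosome. Other list members were named to describe their list, after their values were seen. Members and lists were chosen with earlier results of these data known. Alternatives were no block, the label code as block, quantile normalization, centring on the median, averaged probe sets and floors of 1 and 64. Others were brighter genes only, an intensity trend, all 3 fractions in 1 fit, a Student's t-test on the same values and each replicate left out. The paper's array methods name a fold cutoff and no t-test. Lists without chromosome 10 and without chromosomes 10, 13, 15 and 20 were chosen after seeing the data.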

Additional observations from a re-analysis of the deposited data

Results flagged for a closer look

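In 29 of 290 tested sets of 5 arrays, 1 array stood apart from the other 4. Its gap to the nearest neighbour was more than 0.71 of the whole range. The sets were 147 named genes, 4 measures of array quality and the summed interferon list, each in both fractions. Genes at the floor on 4 or 5 arrays were left out. Gene values were on the log2 scale. The summed list was on the linear scale, so its flags hold for that scale, and quality measures were not transformed further. Chance flags about 1 in 20 groups. CD90-/CD133- replicate 1 was the highest of its fraction for KLF4 (gap 0.731 of the range) and CXCL1 (gap 0.822 of the range). CD90-/CD133- replicate 1 was the lowest of its fraction for FAR2 (gap 0.75 of the range), CDKN1B (gap 0.753 of the range) and LFNG (gap 0.724 of the range). CD90-/CD133- replicate 3 was the highest of its fraction for KLHL14 (gap 0.775 of the range), AFAP1-AS1 (gap 0.732 of the range) and CDO1 (gap 0.767 of the range). CD90-/CD133- replicate 4 was the lowest of its fraction for SSC4D (gap 0.743 of the range). CD90-/CD133- replicate 5 was the highest of its fraction for PRAME (gap 0.794 of the range) and the summed interferon list (gap 0.804 of the range). CD90-/CD133- replicate 5 was the lowest of its fraction for TWIST1 (gap 0.761 of the range) and SLC2A1 (gap 0.795 of the range). CD90+/CD133+ replicate 1 was the highest of its fraction for CXCL1 (gap 0.864 of the range), LIF (gap 0.713 of the range) and IL6 (gap 0.712 of the range). CD90+/CD133+ replicate 1 was the lowest of its fraction for CDH6 (gap 0.788 of the range), KLHL14 (gap 0.856 of the range), HS6ST2 (gap 0.723 of the range) and LFNG (gap 0.719 of the range). CD90+/CD133+ replicate 4 was the lowest of its fraction for BASP1 (gap 0.717 of the range) and VEGFA (gap 0.837 of the range). CD90+/CD133+ replicate 5 was the highest of its fraction for COL4A5 (gap 0.867 of the range), SLC1A4 (gap 0.777 of the range), IFI6 (gap 0.871 of the range), MX1 (gap 0.834 of the range), AMIGO1 (gap 0.76 of the range) and the summed interferon list (gap 0.789 of the range). CD90+/CD133+ replicate 5 was the lowest of its fraction for SLC2A1 (gap 0.778 of the range).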

How the results depend on the processing

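Between CD90+/CD133+ and CD90-/CD133- cells, the number of genes called higher and lower was 2565 and 3013. Under each alternative but the Student's t-test and leaving out replicates 2 or 4, both counts stayed within 1.5 times of these. They were 1876 and 2142 without the replicate block, a fit that ignores the pairing of same-numbered arrays, and 2272 and 2632 with the label code as a block. By the Student's t-test, also without pairing and after Benjamini-Hochberg adjustment, they were 1762 and 1992. With each replicate left out in turn the counts were 1705 to 2120 higher and 1902 to 2489 lower, and without replicate 2 they were 1705 and 1903, without replicate 4 1717 and 1902. Median centring gave 3437 and 3084, so that 52.7% of calls were higher in place of 46%, with a shift of the median of all genes of 0.0368 (log2).

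The counts of genes called between the CD90+ fractions, 4 higher and 4 lower, moved more. They were 3 and 7 without the replicate block, 1 and 0 with the label code, and 0 and 0 with quantile normalization, a floor of 64 or the Student's t-test. Median centring gave 119 and 132, the mean of probe sets 38 and 70, a floor of 1 gave 1 and 3, and an intensity trend 0 and 3. The counts were 745 and 609 over the brighter genes, 457 and 443 with all 3 fractions in 1 fit, and 0 to 2 and 0 to 2 with 1 replicate left out. The cause was not tested.

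Of 135 named genes called between CD90+/CD133+ and CD90-/CD133- cells, 23 lost the call without the block, 14 with the label code, 3 with the mean of probe sets, 23 with a floor of 64, 2 with all 3 fractions, 25 by the t-test and 11 to 22 with 1 replicate left out, and none with quantile normalization, median centring, a floor of 1 or an intensity trend. The direction reversed for 3 genes that were not called: with the mean of probe sets ATP5MC2 was at 0.0035 and TEFM at -0.091, and without replicate 5 AMIGO1 was at -0.015 (0.117 at most with another left out). Dim genes have an understated change, and 3492 genes at the floor on all 10 arrays could not be compared.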
